A study of Mus musculus with 4 samples.

Results

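The genes described here encode the proteins of the cytosolic ribosome, together with their paralogues, in mouse embryoid bodies, the clumps that stem cells form as they leave self-renewal. Members were all genes whose symbol has the form of a ribosomal protein name (Rps or Rpl with a number, Rpsa, or the stalk genes Rplp0, Rplp1 and Rplp2), with pseudogene symbols marked by -ps and the Rps6k kinases left out. A probe set, the group of probes that reports a transcript, was used only where the annotation gave it a single symbol, and the brightest was taken for each gene. This gave 67 members of 22180 named genes, of which 58 were core genes, 7 were paralogues ending in l (such as Rps27l) and 2 were paralogues ending in l and a digit (Rpl7l1 and Rpl22l1). Membership rested on names, and brightness only picked the probe set of each gene.

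All 4 arrays came from the mouse embryonic stem cell line R1. Its cells were depleted of feeder cells, left for 18 h in bacteriological Petri dishes with LIF (a cytokine that maintains self-renewal) withdrawn, and dissociated with trypsin. Cells were kept in EB medium alone, in EB medium with DMSO, or in EB medium with 1.88 µM GSK-J5 or 1.88 µM GSK-J4, with 1 array per treatment. GSK-J4 is an ester prodrug of an inhibitor of the KDM6 histone demethylases, and GSK-J5 is the corresponding ester of a regioisomer that inhibits them poorly and serves as its control compound. The title of the series concerns KDM6 inhibition and the DNA damage response. No treatment was replicated, so no difference below has a replicate check or a p-value, and each is set beside the differences among the 3 controls. Values are log2 expression, with base 2 inferred from their range.

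A ribosome has a small subunit, which reads the message, and a large subunit, which joins amino acids. Each ribosomal protein is needed in about equal amounts, and their messages share a terminal oligopyrimidine (TOP) start, a C followed by a run of pyrimidines, through which mTORC1 and LARP1 set their translation. When assembly fails, free RPL5 and RPL11, bound to 5S rRNA, hold back MDM2 and so stabilise p53. RPS27L is known from human cells as a product of a p53-inducible gene.

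Pyrimidine runs at the start of transcription are a feature the rule did not use, and many but not all core genes have one there. Windows of 30 bases, 15 on each side of the start that RefSeq lists first for the gene, are shown 5′ to 3′ for 3 core genes chosen for their long pyrimidine runs, for the 7 paralogues with an entry in the RefSeq promoter table and their counterparts among the members with one, and for Rps23 and Rps13. Capitals mark runs of 6 or more pyrimidines (C or T).
Rps6: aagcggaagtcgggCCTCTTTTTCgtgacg
Rpl28: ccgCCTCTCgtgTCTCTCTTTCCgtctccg
Rpl38: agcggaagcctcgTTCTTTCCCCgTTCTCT
Rps27: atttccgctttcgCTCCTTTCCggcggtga
Rps27l: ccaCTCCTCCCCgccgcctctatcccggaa
Rpl39: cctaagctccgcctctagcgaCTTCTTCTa
Rpl39l: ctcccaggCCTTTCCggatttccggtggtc
Rpl22: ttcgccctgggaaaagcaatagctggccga
Rpl22l1: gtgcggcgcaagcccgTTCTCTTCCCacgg
Rpl32l: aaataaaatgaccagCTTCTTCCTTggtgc
Rpl3l: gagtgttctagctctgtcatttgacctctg
Rpl7l1: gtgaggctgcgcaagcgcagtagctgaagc
Rpl10l: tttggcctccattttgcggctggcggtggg
Rps23: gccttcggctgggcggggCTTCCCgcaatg
Rps13: gagagcaaacgtcggtgagtggcgtcactt
On GRCm38.p6, the window of Rps27 lies at chr3:90213634-90213663 on the minus strand and that of Rps27l at chr9:66946071-66946100 on the plus strand. The windows of Rps23 (chr13:90923107-90923136, plus strand) and Rps13 (chr7:116334176-116334205, minus strand) belong to the members farthest from the rest on the GSK-J4 array and on the DMSO array. The other windows on the plus strand are those of Rpl28 (chr7:4792950-4792979), Rpl38 (chr11:114668565-114668594), Rpl39l (chr16:10170213-10170242), Rpl22 (chr4:152325711-152325740), Rpl22l1 (chr3:28805493-28805522), Rpl32l (chr10:20208424-20208453) and Rpl3l (chr17:24727811-24727840). Those on the minus strand are of Rps6 (chr4:86857353-86857382), Rpl39 (chrX:37085208-37085237), Rpl7l1 (chr17:46782642-46782671) and Rpl10l (chr12:66284387-66284416). In Rps6, Rpl28, Rpl38 and Rps27 a long run spans the start itself, while the Rps27l and Rpl39l runs end before it. Rps13, Rpl22, Rpl3l, Rpl7l1 and Rpl10l have no run in the window.

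Of the 67 members, 52 had an entry in the RefSeq promoter table, 45 of them core genes. A C followed by at least 4 pyrimidines stood exactly at a listed start in 10 of the 45 core genes (22.2%), against 3.01% of all 27025 genes in the table and 2.67% of the 17491 protein-coding ones. A run of 6 or more pyrimidines within 15 bases of a start was found in 27 of 45 (60%), against 32.7% of all genes. The 7-letter motif CCGGAAG, a binding core of ETS factors, occurred on either strand of the 300-base promoter in 21 of 45 core genes (46.7%) against 9.93% of all genes. AAGATGGC, a YY1 core, occurred in 2 of 45 (4.44%, against 3.19%), and TATAAA in 4 (8.89%, against 15.7%). Of the 7 paralogues with an entry, 4 had a pyrimidine run near a start, 1 had the exact form and 2 had CCGGAAG. Whether the listed starts are those used in these cells was not tested.

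Cell identity was checked by markers. All 10 stem cell and early epiblast markers passed the filter on dim genes (a mean over the 4 arrays of at least 6.59, the 40th percentile), and Nanog and Sox2 read above 12 on every array. GSK-J4 lay below all controls in 7 of these 10, and 2 were counted as lower, Fgf5 at 7.23 against 8.66 to 8.83 and Dnmt3b at 11.30 against 12.07 to 12.18. Of all genes that passed, 35.5% lay below all controls and 0.842% were counted as lower. The filter passed 13308 of all 22180 genes. Of 14 feeder fibroblast genes 9 passed, the other 5 (Col3a1, Dcn, Lum, Postn and S100a4) read under the filter level on all 4 arrays, and 11 read lower in GSK-J4 than in every control, by at most 0.51. The log2 of the summed fibroblast level was 12.2 on each control array and 12.1 in GSK-J4, and that of the stem cell markers was 15.5 and 15.4. Vim, at 11.55 to 11.61, makes up most of the fibroblast sum, since every other gene of that list read at most 8.03. The part of either list in the results below was not tested. The array medians lay between 6.63 and 6.65.

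Transcripts of the core ribosomal proteins differed little between GSK-J4 and the controls. The margin of a gene is the log2 distance from GSK-J4 to the closest of the 3 controls, and it is 0 inside their range. Genes were counted as higher or lower where the margin reached 1.5-fold, or 0.585 in log2 units. Among the 13308 genes that passed the filter, 2.21% were higher and 0.842% lower, 3.05% in all. Of the 67 members 64 passed, and 0 were counted in either direction, as was also the case without the filter and at a smaller margin of 0.322 in log2 units. At a share of 3.05% few of 64 genes would be counted, so the 0 by itself does not set the members apart. Among the 786 genes with a mean of 12 or more, as 30 core genes have, 1 was higher and 3 were lower. Margins of the 58 core genes, all of which passed, ran from -0.27 to 0.23.

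By any amount, GSK-J4 lay above all 3 controls in 29 of the 58 core genes and below all of them in 12, with 17 inside the controls' range. The background over all genes that passed was 38.0% above and 35.5% below, against 50% and 20.7% of the core. After a further quantile normalization the counts were 23 and 14. Core genes had a median difference of 0.02 when GSK-J5 was subtracted from GSK-J4, and of 0.04 when DMSO or medium was. Over all genes that passed, these medians were 0.00, 0.01 and 0.00. With GSK-J5 in the place of GSK-J4, 13 core genes (22.4%) lay above the other 3 arrays and 7 (12.1%) below, beside 17.6% and 18.3% of all genes. With DMSO these counts were 5 (8.62%) and 16 (27.6%), beside 18.3% and 26.7%. With medium they were 8 (13.8%) and 16 (27.6%), beside 21.3% and 14.4%.

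**Figure D1:**
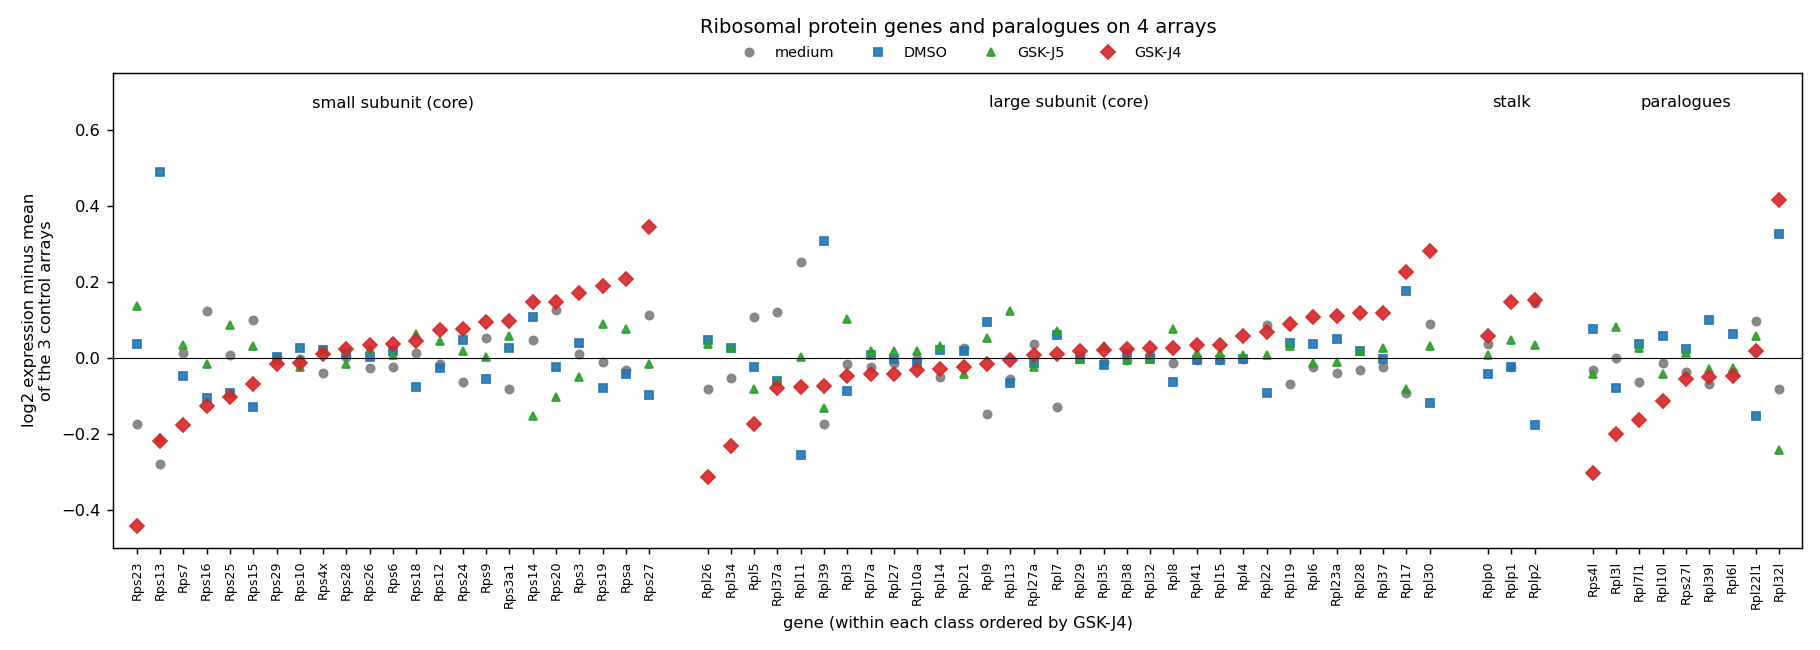
Log2 expression of each of the 67 members on the 4 arrays, as the difference from the mean of the 3 controls (y axis), by gene (x axis) within each class. GSK-J4 lies above the 3 control points in 30 members, below them in 18 and among them in 19, mostly by small amounts; its lowest point is Rps23 and its highest Rpl32l, a dim paralogue, and Rps13 stands apart on the DMSO array.

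The spread of the differences over genes was next compared between pairs of arrays. Over all genes that passed, the SD of GSK-J4 minus GSK-J5 was 0.289, against 0.133 for GSK-J5 minus DMSO. Over the 58 core genes the corresponding SDs were 0.153 and 0.149. Their differences between the isomers were thus about as wide as those between GSK-J5 and DMSO, but wider than those between GSK-J5 and medium (SD 0.107). Rps13, which stood apart on the DMSO array, was -0.70 for GSK-J5 minus DMSO and is part of the SD of 0.149. For GSK-J4 minus DMSO the SD was 0.186 in the core and 0.305 over all genes, and for DMSO minus medium it was 0.180 and 0.140. For GSK-J4 minus medium the values were 0.139 and 0.284, and for GSK-J5 minus medium 0.107 and 0.132. The 58 core genes are not independent replicates, and these SDs describe 4 arrays.

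**Figure D2:**
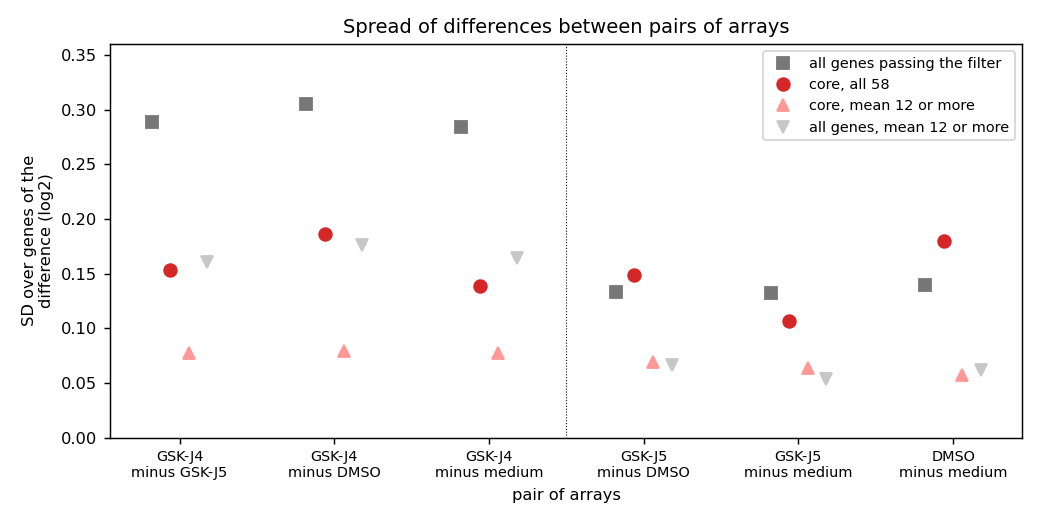
SD over genes of the log2 difference (y axis) for each pair of arrays (x axis); the dotted line parts pairs with GSK-J4 from pairs of controls. For all genes the SD was 0.289 between the isomers and 0.133 between GSK-J5 and DMSO, while for the core genes it was 0.153 and 0.149. Between GSK-J5 and medium the SD of the core genes was 0.107.

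Brightness divided the core genes. The 30 members with a mean of 12 or more, near the top of the array's range of 2.20 to 14.48, lay closer together than the other 28: their GSK-J4 minus GSK-J5 differences had an SD of 0.0776, against 0.206. Over all genes that passed, these SDs were 0.161 and 0.295. Between controls the core showed the same, with 0.0696 and 0.201 for GSK-J5 minus DMSO. The narrowing is thus not particular to the core or to GSK-J4. In these 30 genes GSK-J4 was above all 3 controls in 19 (63.3%) and below them in 3 (10.0%), with margins from -0.03 to 0.13. Among all 786 genes with a mean of 12 or more the direction was the other way, with 25.2% above and 50.5% below. The median level of these 786 was 12.44, against 13.27 in the 30 core genes, so they are not matched in brightness. In the 28 dimmer core genes GSK-J4 was above in 10 (35.7%) and below in 9 (32.1%), close to 38.8% and 34.6% of all genes under 12. The split at 12 was chosen after the values were seen. When each gene was given the median of its probe sets in place of the brightest, 18 core genes reached 12, of which 9 lay above and 3 below. Without the medium array, 6 of the 30 lay below in place of 3. GSK-J5 in the place of GSK-J4 gave 9 above and 3 below among the 30, DMSO 0 and 8, and medium 1 and 9. Compression of the signal near the top of the range was not tested.

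**Figure D3:**
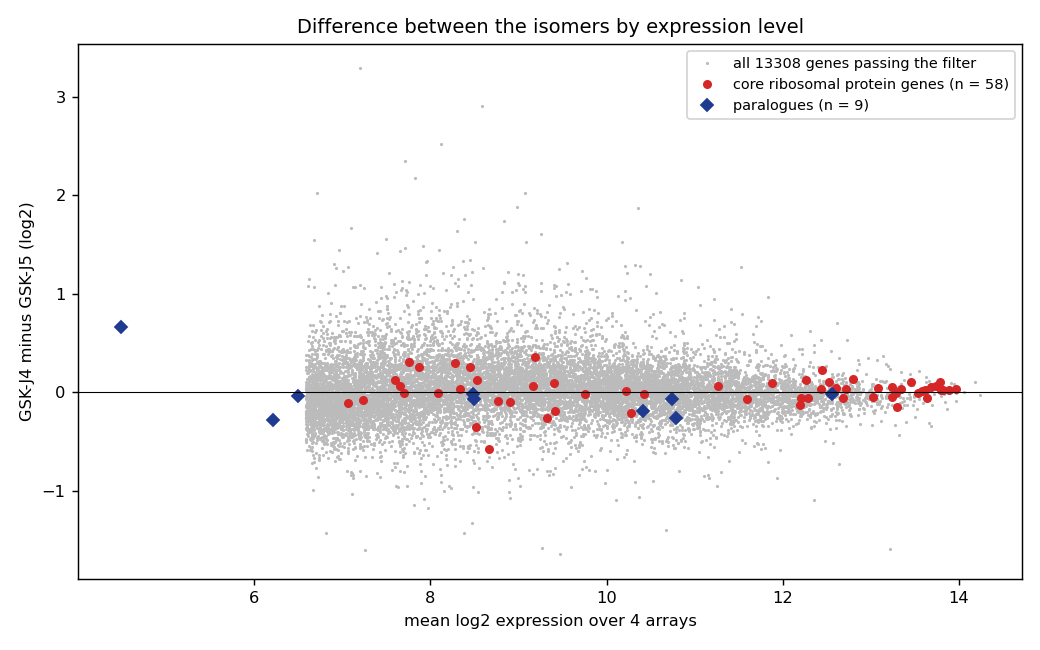
GSK-J4 minus GSK-J5 log2 difference (y axis) against mean log2 expression over the 4 arrays (x axis) for all 13308 genes that passed the filter, with the 58 core genes and 9 paralogues marked. Core genes with a mean of 12 or more have an SD of 0.0776 around a median of 0.03, and dimmer ones spread more widely, as do dimmer genes among all that passed.

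In the small subunit, 13 of 23 core genes (56.5%) lay above the controls in GSK-J4 and 5 (21.7%) below, against 38.0% and 35.5% of all genes that passed. Rps27, a zinc-binding protein, had the largest positive margin of all core genes. It read 9.22 in medium, 9.01 in DMSO, 9.09 in GSK-J5 and 9.45 in GSK-J4. GSK-J4 was the highest array by 0.23, about as much as the 0.21 between the highest and the lowest control. Without the medium array the margin was 0.36. Rpsa, a small subunit protein also known as the laminin receptor, read 12.72, 12.71 and 12.83 in medium, DMSO and GSK-J5 and 12.96 in GSK-J4, a margin of 0.13. The same margin of 0.13 was found for Rps3, which lines the entry of the message channel and read 12.42, 12.45 and 12.36 in the controls and 12.58 in GSK-J4. Without the GSK-J5 array the margin of Rpsa was 0.24. Rps19, the gene most often mutated in Diamond-Blackfan anaemia, read 12.47, 12.40 and 12.57 in the controls and 12.67 in GSK-J4, a margin of 0.10 that was 0.20 without the GSK-J5 array.

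Rps23, a protein of the decoding centre, was the lowest core gene in GSK-J4. It read 8.60 in medium, 8.81 in DMSO, 8.91 in GSK-J5 and 8.33 in GSK-J4. The margin of -0.27 is smaller than the control range of 0.31, and without the medium array it was -0.48. Rps7, which can bind MDM2, read 10.34, 10.28 and 10.36 in the controls and 10.15 in GSK-J4, a margin of -0.13. The GSK-J4 values of Rps4x, Rps10, Rps13, Rps15 and Rps18 lay inside the controls' range.

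In the large subunit, 13 of 32 core genes (40.6%) lay above, near the 38.0% of all genes, and 7 (21.9%) below, against 35.5%. Rpl30 read 7.89, 7.68 and 7.83 in medium, DMSO and GSK-J5 and 8.08 in GSK-J4, a margin of 0.19. Rpl26, which can bind the p53 message, read 8.52, 8.65 and 8.64 in the controls and 8.29 in GSK-J4, a margin of -0.23, or -0.35 without the medium array. Rpl34 read 9.32, 9.40 and 9.40 in the controls and 9.14 in GSK-J4 (margin -0.18), and Rpl27 had a margin of -0.03. The 12 large subunit genes inside the range were Rpl3, Rpl7, Rpl8, Rpl9, Rpl11, Rpl13, Rpl14, Rpl21, Rpl22, Rpl27a, Rpl35 and Rpl39.

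Rpl5 and Rpl11 encode the proteins of the 5S rRNA arm. Rpl5 read 8.92 in medium, 8.79 in DMSO, 8.73 in GSK-J5 and 8.64 in GSK-J4, a margin of -0.09 beside a control range of 0.19, or -0.15 without the GSK-J5 array. Rpl11 read 7.50, 6.99 and 7.25 in the controls and 7.17 in GSK-J4, inside a control range of 0.51. Rpl5 and Rpl11 were each read by 1 probe set, with means of 8.77 and 7.23, while the median of the core means was 12.21. Whether such dim probe sets report the main transcript of their gene was not tested. Mdm2, the ubiquitin ligase that both proteins bind, read 11.25, 11.19 and 11.19 in the controls and 12.03 in GSK-J4. Mdm4, its partner in restraining p53, read 11.02, 10.97 and 10.97 in the controls and 11.92 in GSK-J4. Mdm2 and Mdm4 were the 2 counted genes of the 7 measured on the list of the 5S particle and MDM2, beside 3.05% of all genes that passed. Rpf2, an assembly factor that brings the 5S particle to the large subunit, read 11.80, 11.94 and 11.73 in the controls and 11.43 in GSK-J4 (margin -0.30).

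The 3 stalk genes, whose proteins recruit elongation factors, all lay above the controls, by small amounts, beside 38.0% of all genes that passed. Rplp1 read 13.40, 13.40 and 13.47 in medium, DMSO and GSK-J5 and 13.57 in GSK-J4, a margin of 0.10, or 0.17 without the GSK-J5 array. Rplp0 had a margin of 0.02 and Rplp2 of 0.01, each smaller than its own control range, and without the medium array these were 0.05 and 0.12. For GSK-J4 minus the mean of the controls, the brightest probe set of Rplp1 gave 0.15 and the next gave -0.03. Those of Rplp0 gave 0.06 and 0.2.

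Paralogues were set beside the core genes. Of the 7 ending in l, GSK-J4 lay below all controls in 5 and above in 1, with Rpl39l inside the range, beside 35.5% below and 38.0% above over all genes that passed. Rpl3l, among those below, and Rpl32l, the 1 above, did not pass the filter. Of the 7, 0 were counted, beside 3.05% of all genes that passed. Between the isomers the median of the 7 was -0.07, beside 0.02 in the core. With DMSO as the reference the medians were -0.12 and 0.04, and with medium -0.02 and 0.04. Between controls the same 7 genes had a median of -0.10 for GSK-J5 minus DMSO and 0.10 for DMSO minus medium, as large as the gap to GSK-J4. Counting Rpl7l1 and Rpl22l1 too, 6 of 9 lay below in GSK-J4. In all 6 paralogues that passed the filter the DMSO array was the highest of the 4, by 0.01 to 0.13, beside 18.3% of all genes. The paralogues are few and cannot be said to differ as a class from the core.

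Rps27l, the counterpart of Rps27 that is p53-inducible in human cells, did not read higher in GSK-J4. It read 10.72 in medium, 10.78 in DMSO, 10.77 in GSK-J5 and 10.70 in GSK-J4, a margin of -0.02, on arrays where Mdm2 and Mdm4 were counted as higher. Its margin was -0.07 without the medium array. Rps27 on the same arrays was 0.36 above GSK-J5, while Rps27l was 0.07 below it (difference -0.07). Activity of p53 in these samples was not tested.

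Rps4l was the lowest paralogue. RefSeq lists it as a transcribed pseudogene of the Rps4 family, and it read 10.83 in medium, 10.94 in DMSO, 10.82 in GSK-J5 and 10.56 in GSK-J4. The GSK-J4 array lay 0.26 below the nearest control, more than the control range of 0.12, though less than 1.5-fold. Rps4x, the X-linked core gene of that family, read 13.25, 13.31, 13.31 and 13.30. Rpl7l1, a large subunit paralogue, read 10.39, 10.49 and 10.48 in the controls and 10.29 in GSK-J4, a margin of -0.10 that was -0.19 without the medium array, while Rpl7 lay inside the range. Rpl10l, a retrogene known from the testis, read 8.51, 8.58 and 8.48 in the controls and 8.41 in GSK-J4. Rpl39l, also known from the testis, read 8.42, 8.59, 8.46 and 8.44.

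Rpl6l, a pseudogene per RefSeq, read 12.53, 12.63, 12.54 and 12.52 in medium, DMSO, GSK-J5 and GSK-J4, and Rpl6 had a margin of 0.07, or 0.12 without the DMSO array. The remaining paralogues, Rpl3l, known from striated muscle, Rpl32l and Rpl22l1, did not pass the filter. Rpl32l read 4.30, 4.71 and 4.14 in the controls and 4.80 in GSK-J4, and its 0.66 difference from GSK-J5 stands beside a control range of 0.57; its margin of 0.09 was 0.50 without the DMSO array. Rpl3l read 6.26, 6.18, 6.34 and 6.06 (margin -0.12, or -0.20 without the DMSO array), and Rpl22l1 read 6.59, 6.34, 6.55 and 6.51.

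**Figure D4:**
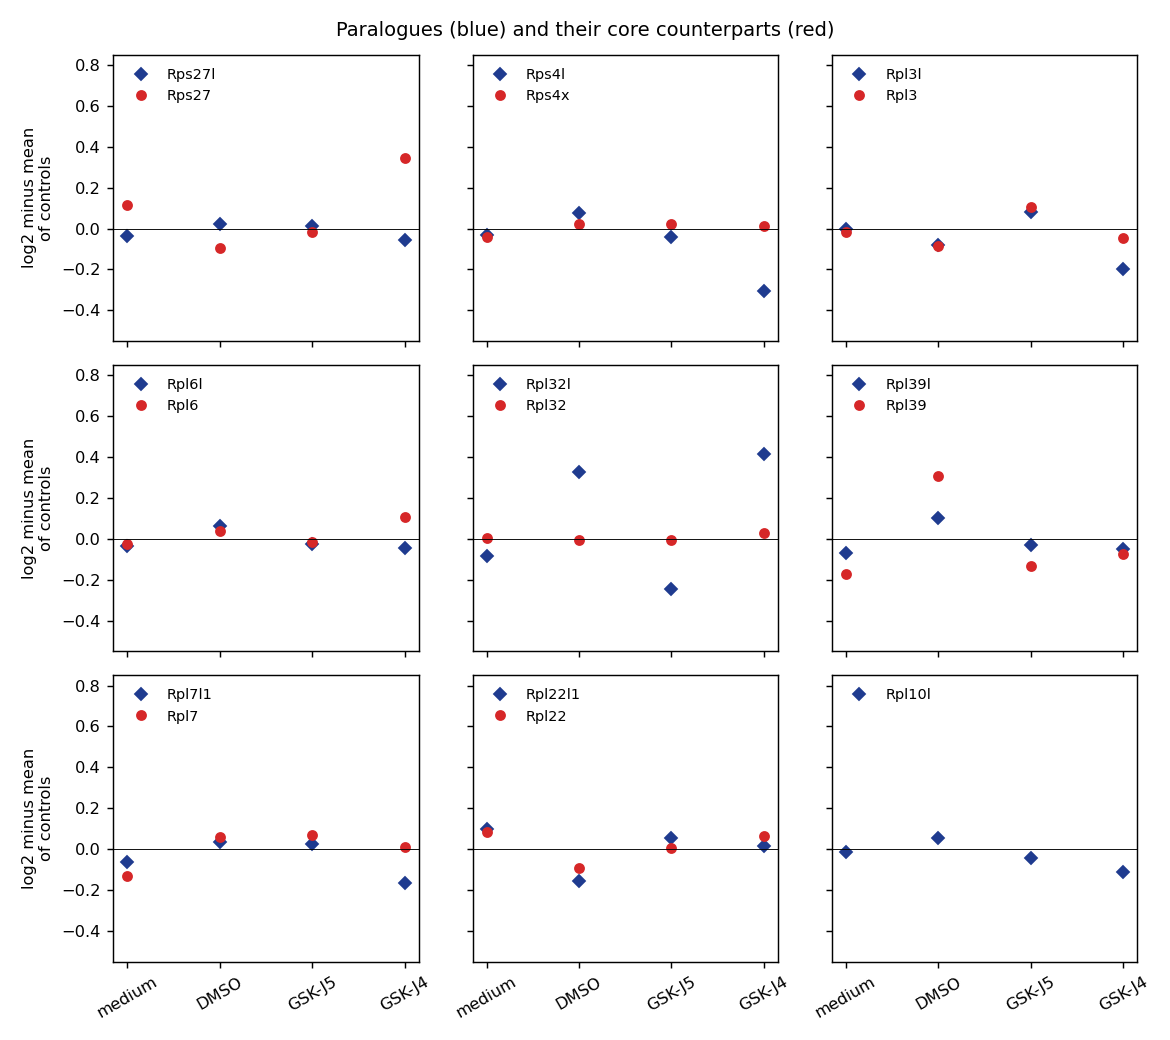
Log2 expression on the 4 arrays (x axis) minus the mean of the 3 controls (y axis) for each paralogue (blue diamonds) and its core counterpart (red circles); Rpl10l has no counterpart with a single-symbol probe set. Rps27 is higher and Rps27l slightly lower in GSK-J4, Rps4l is lower beside an even Rps4x, and the dim Rpl32l varies by 0.57 among controls.

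The member that stood farthest from the other arrays did so in DMSO, not in GSK-J4. Rps13, a protein of the small subunit, read 7.47 in medium, 8.24 in DMSO, 7.54 in GSK-J5 and 7.53 in GSK-J4. DMSO alone was high, 1.62-fold above the next array (0.70 on the log2 scale), and the other 3 arrays lay within 0.07 of each other. Over all genes that passed, 0.015% stood 1.5-fold above the other 3 arrays in DMSO, 2 genes in all. The annotation gives the symbol Rps13 to 3 further probe sets together with other symbols, and on these the DMSO array lay at most 0.04 above the other 3. Rpl39, a short protein of the exit tunnel, was the next member that was high in DMSO, at 7.99 against 7.51, 7.55 and 7.61. Rplp2 was low there, at 7.38 against 7.59 to 7.71, and Rpl11 was high in medium by 0.25. All 4 of these are read by probe sets with a mean under 8. Between pairs of arrays 0 members differed by 2-fold. Of all genes that passed, 0.827% were higher and 0.143% lower by that much in GSK-J4 than in GSK-J5, 0.842% and 0.233% than in DMSO, and 0.744% and 0.278% than in medium, while 0.00751% were lower in GSK-J5 than in DMSO.

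Different probe sets of a gene often disagreed on such small differences. Of the 67 members 24 had 2 or more probe sets with distinct values. The sign of GSK-J4 minus the mean of the controls was the same on the brightest and the next probe set in 13 of them and not in 11. For Rpl13, the brightest probe set gave -0.01 and the next gave 0.35, and for Rpl7 they gave 0.01 and -0.33. Rpsa gave 0.21 and 0.14, and Rps19 0.19 and 0.13, the same direction on both. Over all further probe sets of members the margins ran from -0.24 to 0.27, so these held 0 counted genes too. Rps12 was listed on 8 probe sets, of which 3 had distinct values. Probe sets of a gene also differed in level, with means of 13.74 and 7.56 for Rpl19 and of 13.46 and 7.58 for Rplp1. Rps23, Rpl26, Rps27 and Rpl30 each had 1 single-symbol probe set, with means from 7.87 to 9.19. Whether these report the main transcript was not tested. Ribosomal protein genes have many near-identical processed pseudogenes, and the part that signal from such copies has in these values was not tested.

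Genes that build ribosomes were set beside the proteins they assemble. Of 77 measured biogenesis factors, 46 (59.7%) lay below all 3 controls and 10 (13%) above, against 35.5% and 38.0% of all genes that passed and 12 and 29 of the 58 core genes. The factors read brighter than most genes, and among the 21 with a mean of 12 or more the share below, 52.4%, was near the 50.5% of all genes of that brightness. Among the 56 dimmer factors 62.5% lay below and 10.7% above, beside 34.6% and 38.8% of all genes under 12. Those genes are not matched in brightness to the dimmer factors. Their median level was 8.86, while that of all 77 factors was 11.53, and the share below was larger among brighter genes. Of these factors 0 were counted, beside 3.05% of all genes that passed. Their median was -0.08 with GSK-J5 as the reference, -0.07 with DMSO and -0.10 with medium, while GSK-J5 minus DMSO gave -0.01. The count below was 44 to 50 under the 3 rescalings. Nop10, a subunit of the particles that make pseudouridine in rRNA, read 12.38, 12.48 and 12.39 in medium, DMSO and GSK-J5 and 12.03 in GSK-J4 (margin -0.35). Utp3, a factor of the small subunit processome, read 8.68, 8.57 and 8.70 in the controls and 8.27 in GSK-J4 (margin -0.30). The samples are whole embryoid bodies, in which fewer cells of a type and less RNA per cell cannot be told apart.

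RNA polymerase I genes had 7 of 15 below and 3 above, with 0 counted and a median of 0.00 against GSK-J5. Znrd1, a polymerase I subunit, had a margin of -0.16. Ttf1, which terminates rRNA transcription, was the farthest at 9.42 against 8.86 to 8.95 (margin 0.47). Other messages with a TOP start, mostly translation factors, had 7 of 19 above and 7 below (36.8% each), near the shares of all genes. Of these messages 0 were counted, beside 3.05% of all genes that passed, and their median was 0.02. Among them Eef1d, an exchange factor of elongation, read 11.19, 11.27 and 11.19 in the controls and 10.69 in GSK-J4 (margin -0.50), and Tpt1 had a margin of 0.21. Fau, a small subunit protein without an Rp symbol, read 13.43, 13.48 and 13.46 in the controls and 13.53 in GSK-J4. Of 5 dedicated chaperones of ribosomal proteins 3 lay below and 1 above; Heatr3, which helps import RPL5, had a margin of -0.15 and Bccip of -0.10. Heatr3 is also on the list of the 5S particle. These comparisons use the same control arrays as those of the members.

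**Figure D5:**
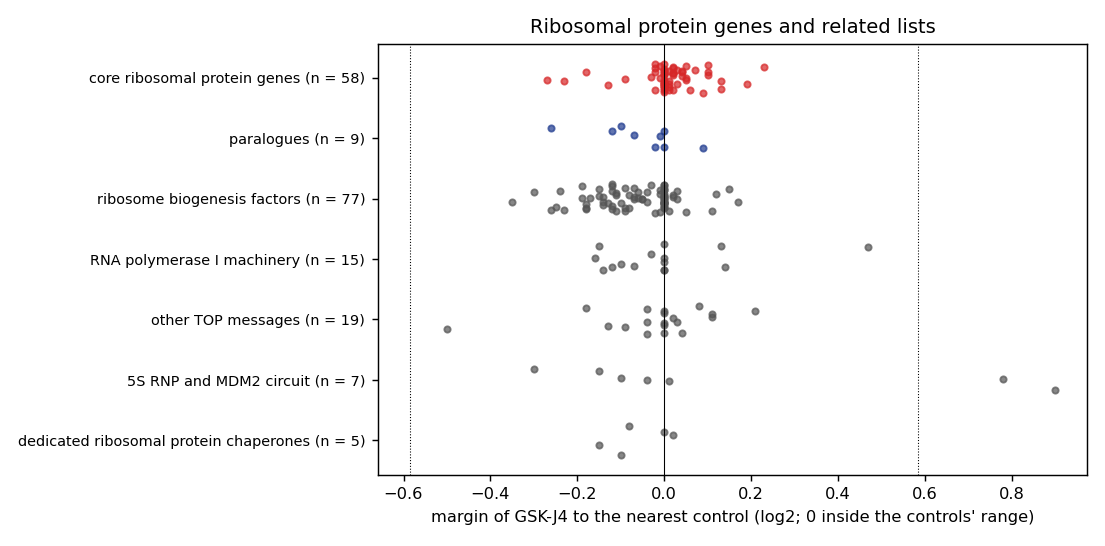
Margin of GSK-J4 to the nearest control on the log2 scale (x axis) for each measured gene of the core, the paralogues and 5 related lists (rows, with the number of genes); dotted lines mark 1.5-fold. Core genes lie around 0, 46 of 77 biogenesis factors lie below it, and Mdm2 and Mdm4 are the points beyond 1.5-fold.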

How the data were processed

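Per the labels' protocols, amplification started from 100 ng of total RNA per sample and the label was biotin. The submitters' processing notes name RMA and Affymetrix Expression Console (version 1.2.1.20) for the deposited log2 values, whose base was inferred from their range. RMA brings the arrays to nearly the same distribution, so a change of the whole distribution cannot be read from these values. For the array probes, the build was not given in the sources used here. Of 41345 probe sets, 23521 had a single symbol in the platform annotation, 1814 had several and 16010 had none listed there. Of 85 protein-coding genes that the member rule finds in RefSeq, 65 were measured and 20 were not analysed here.

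Named were all paralogues with their counterparts, genes counted on any array, the 6 highest and 6 lowest core genes by margin, Rps13, Rps23 and Rps27, and from each related list up to 3 counted genes per direction or the 2 with the largest margin; other genes were chosen after their values were seen. Members, lists and rules were chosen with earlier results of these data known. The counting rule was tested on simulated data. Python 3.11.15 and pandas 2.3.3 were used. Alternatives were filters, folds, rescalings, probe set choice, controls left out, other references, the choice of paralogues and the addition of probe sets with several symbols. The splits by brightness, the spread by pair of arrays and the margins of all members without each control were added after seeing the data.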

Additional observations from a re-analysis of the deposited data

How the results depend on the processing

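No member was counted in either direction under any alternative run: filters at no level and at the 60th percentile, margins of 0.322 in log2 units and of 2-fold, median centring, a further quantile normalization, loess, the median over probe sets, or each control left out. The core median of 0.02 (GSK-J4 minus GSK-J5) was 0.04 under loess, 0.04 against DMSO and 0.04 against medium; these shifts exceeded 0.0126, the SD of the same median over the 3 pairs of controls, and their cause was not tested. The Rps13 margin in DMSO was 0.69 to 0.71 under the rescalings, but Rps13 is too dim for the filter at the 60th percentile and was then not counted. With each control left out in turn, 30 to 33 core genes lay above the remaining controls and 14 to 17 below. No paired analysis was possible because each treatment has a single array. With 1 array per treatment, the precision is set by the number of arrays.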

Other observations

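Some member symbols appear on probe sets to which the annotation gives several symbols, such as those of a pseudogene or of a small nucleolar RNA within the gene, and these were assigned to no gene. Of 57 such probe sets, GSK-J4 lay above all 3 controls on 23 (40.4%) and below them on 10 (17.5%). Over all genes that passed the filter, these shares were 38.0% and 35.5%. Margins on the 57 ran from -0.40 to 0.33, with 0 at 1.5-fold, beside 3.05% of those genes. The median over these probe sets was 0.03 with GSK-J5 as the reference and 0.05 with DMSO or medium. Of the 20 protein-coding genes by the member rule that were not analysed, 13 appear on these probe sets.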
